A study of Mus musculus with 10 samples.

Results

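The genes described here are 9 integrin chains of leukocytes and the selectin ligand gene Selplg, 10 of the 19938 genes measured in MC38 tumors. They were chosen by name as Itgal, Itgam, Itgax, Itgb2, Itga4, Itgb7, Itga5, Itgav, Itgae and Selplg, and each is measured by a single probe whose annotation names that gene alone. MC38 is a mouse colon carcinoma line, grown here under the skin of C57BL/6 mice, and total RNA of each whole tumor was put on a whole-transcript array. In the CpG1826 group, 5 mice (numbers 50, 58, 183, 189 and 595) carried a tumor of about 40 mm2 that received 50 µg CpG1826, dissolved in 50 µL PBS, and was removed after 6 h. CpG1826 is a short synthetic DNA that activates mouse TLR9, a sensor of unmethylated CpG. In the PBS group, 5 mice (numbers 26, 29, 482, 592 and 661) had PBS injected into the same kind of tumor. The protocol text describes the CpG1826 injection only, and the same volume and time were assumed for PBS. All mice carried the same tumor line on the same strain, and the sources give no age. The question is which adhesion receptor transcripts differ between tumors shortly after a TLR9 ligand is put into them.

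Integrins are surface receptors made of an alpha and a beta chain. Leukocytes use the beta2 integrins, with CD11a, CD11b or CD11c as alpha chain, to stick to ICAM proteins and to complement fragments, and the alpha4 integrins to hold on to VCAM-1 or MAdCAM-1 on vessels. PSGL-1, the product of Selplg, is the ligand by which leukocytes first roll on selectins. Many cell types of a tumor use alpha5 and alphav integrins to bind fibronectin, vitronectin and other matrix proteins.

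Array medians ran from 6.47 to 6.53 (log2), and pairs of arrays correlated at r = 0.980 to 0.994 across probes, which are not independent replicates. Of 8 epithelial markers, Cdh1 and Epcam rose. Krt18 and Krt19, keratins of colon epithelium, averaged 5.31 and 5.06 in CpG1826 tumors and 5.42 and 5.08 in PBS tumors and did not pass. Genes marking skin keratinocytes stood apart between the groups: 10 of 15 rose and 0 fell, and their mean log2 level was 6.82 to 7.35 in CpG1826 tumors and 5.37 to 5.94 in PBS tumors. Their summed linear intensity was 2234 to 3941 in CpG1826 tumors and 787 to 1101 in PBS tumors. Of the 14 pan-leukocyte markers, 2 rose and 1 fell, and their mean level was 9.59 to 10.06 in CpG1826 tumors and 9.39 to 9.80 in PBS tumors. PBS mouse 661 had the lowest and CpG1826 mouse 183 the highest pan-leukocyte level of all 10. The same mice stood at the ends for the genes described here: mouse 661 was the lowest PBS tumor for 7 of the 10 and mouse 183 the highest CpG1826 tumor for 7 of the 10. Because whole tumors were measured, fewer cells of a type and less RNA per cell cannot be told apart in any value below.

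Of the 10 genes, Itga5 and Itgav rose, Itga4 fell and 7 did not pass the test (limma with Benjamini-Hochberg adjustment over all 19938 genes, adjusted p under 0.05, n = 5 per group). Among all genes 4.66% passed, 3.56% higher and 1.10% lower in CpG1826 tumors. The median log2 difference was 0.05 over the 10 genes and -0.02 over all genes. The groups did not overlap for 2 of the 10 genes, Itgam and Itgav, both higher in CpG1826 tumors, against 6.78% of all genes in either direction and 4.35% in that direction. No gene of the 10 reached a 2-fold change.

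**Figure D1:**
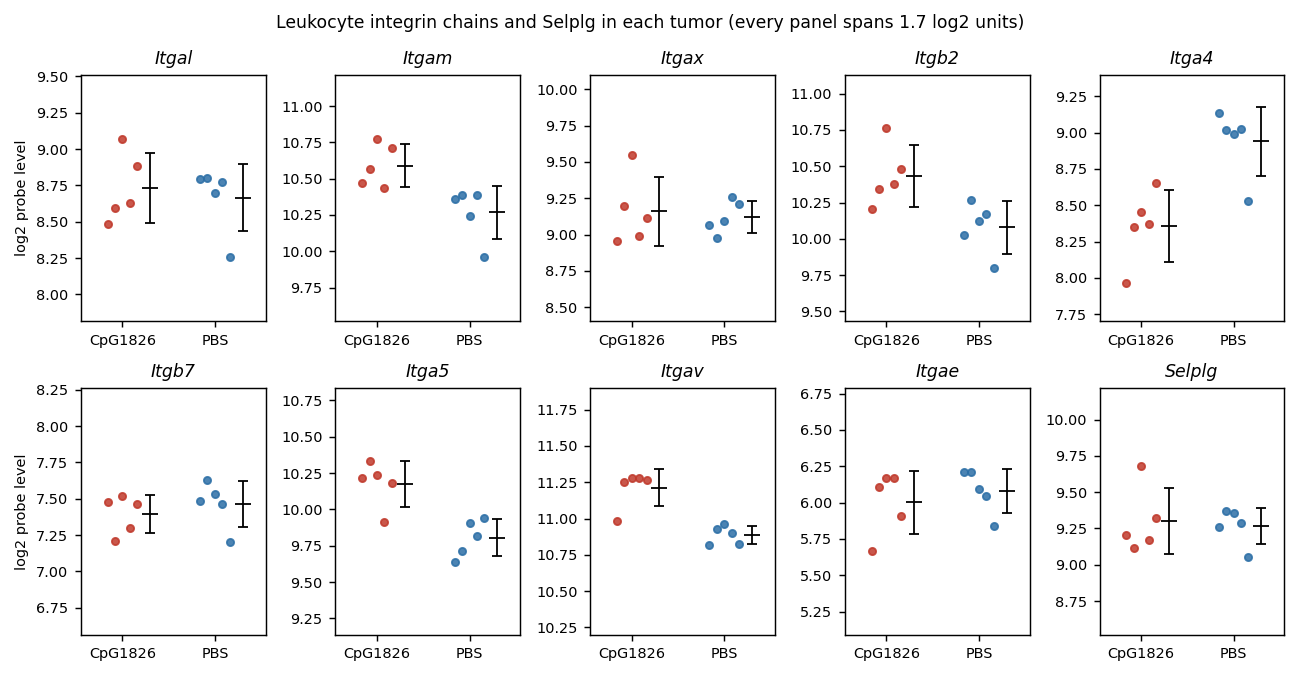
Log2 probe level of each of the 10 genes in each tumor, with 5 CpG1826 tumors (red) left of 5 PBS tumors (blue); each panel spans 1.7 log2 units, and the black mark and bar beside each group are its mean and SD. For Itgam and Itgav every CpG1826 tumor lies above every PBS tumor, and for Itga4 the CpG1826 tumors average 8.36 and the PBS tumors 8.94.

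Among the beta2 integrin genes, Itgb2 and Itgam, which encode CD18 and CD11b and together make Mac-1, the complement receptor of neutrophils and macrophages, had higher mean levels in CpG1826 tumors without passing the test. Itgam had log2 levels of 10.47, 10.56, 10.77, 10.43 and 10.71 in CpG1826 mice 50, 58, 183, 189 and 595, against 10.36, 10.39, 10.24, 10.39 and 9.96 in PBS mice 26, 29, 482, 592 and 661. All 5 CpG1826 tumors lay above all 5 PBS tumors, and PBS mouse 661 was the lowest. The log2 difference was 0.32 ± 0.10 (SE), or 1.25-fold (95% confidence interval 1.08 to 1.45, limma adjusted p = 0.0914). Itgam passed in 3 other limma fits: when only genes above the median level were tested (adjusted p = 0.0443), when the prior was robust and trended (0.0408), and when arrays were weighted (0.0424). It did not pass in 15 further fits, among them each fit with 1 mouse left out (limma adjusted p = 0.0686 to 0.210). Itgb2, the beta chain shared by all CD11 integrins, had levels of 10.20, 10.34, 10.77, 10.37 and 10.48 in the CpG1826 tumors, against 10.03, 10.27, 10.13, 10.17 and 9.80 in the PBS tumors. Here 4 of 5 CpG1826 tumors exceeded every PBS tumor, and mouse 50 overlapped with the PBS group. The log2 difference was 0.36 ± 0.11 (SE), or 1.28-fold (1.09 to 1.51, limma adjusted p = 0.102).

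The promoter of Itgam is shown because its product is the alpha chain of Mac-1 and its groups did not overlap. The sequence is the 250 bases before the RefSeq start in GRCm38.p6, 5′ to 3′ on the gene's strand, with GAGGAA and its reverse complement TTCCTC in capitals, the core bound by the myeloid factor PU.1, which is known to act at the human ITGAM promoter.
Itgam (chr7:128062390-128062639, plus strand): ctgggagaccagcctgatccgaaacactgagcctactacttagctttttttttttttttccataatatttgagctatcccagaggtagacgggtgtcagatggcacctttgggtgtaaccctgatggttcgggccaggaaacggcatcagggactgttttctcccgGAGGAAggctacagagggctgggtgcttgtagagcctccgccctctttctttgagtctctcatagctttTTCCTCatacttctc
It holds GAGGAA 84 to 79 bases and TTCCTC 15 to 10 bases before the start. Of 32817 such windows of the RefSeq table, 23.3% hold this core on either strand, and a match is not evidence of binding. Itgam is followed directly by Itgax and then by Itgad among the protein-coding genes of chromosome 7 in the same assembly.

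Itgal, the CD11a chain of LFA-1, the main ICAM-1 receptor of lymphocytes, averaged 8.73 ± 0.24 in CpG1826 tumors and 8.66 ± 0.23 in PBS tumors (SD, n = 5 each). The groups overlapped, with CpG1826 tumors at 8.48 to 9.07 and PBS tumors at 8.26 to 8.80. The log2 difference was 0.07, with a 95% confidence interval of -0.21 to 0.34. Itgax, the CD11c chain of dendritic cells and many macrophages, averaged 9.16 ± 0.24 in CpG1826 tumors and 9.12 ± 0.11 in PBS tumors (SD, n = 5 each), a difference of 0.04 (-0.19 to 0.27). Its highest value, 9.55, was that of CpG1826 mouse 183. Itgad, which encodes the further alpha chain CD11d, differed by -0.04 ± 0.09 (SE).

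Itgal changed unequally to Itgb2 and to Itgam, and the other 4 pairs of beta2 chains did not pass. For each tumor the log2 level of a second chain was subtracted from that of a first, and the change of this difference between the groups was tested over 25 pairs with an exact permutation test (two-sided, Benjamini-Hochberg adjustment over the 25, smallest unadjusted p possible 0.00794). Itgal minus Itgb2 was -1.75 to -1.60 in CpG1826 tumors and -1.54 to -1.24 in PBS tumors, so every CpG1826 tumor had less Itgal relative to Itgb2 than any PBS tumor. The change was -0.29 (95% interval from the same test -0.42 to -0.16, exact permutation adjusted p = 0.0248). Itgam minus Itgal changed by 0.26 (0.11 to 0.40, exact permutation adjusted p = 0.0248). Itgam minus Itgb2 changed by -0.03 (-0.19 to 0.11), which did not pass. Itgax minus Itgb2 changed by -0.31 (-0.60 to -0.05, exact permutation adjusted p = 0.0661), and passed without PBS mouse 29 (-0.40, exact permutation adjusted p = 0.0283). Itgam minus Itgax changed by 0.28 (0.01 to 0.61, exact permutation adjusted p = 0.0916). Itgax minus Itgal changed by -0.03 (-0.38 to 0.29). A level of a probe is not comparable with that of another probe, and only the change of each difference is read here.

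Set against the mean of 14 pan-leukocyte markers in the same tumor, Itgb2 was higher in CpG1826 tumors by 0.21 (0.13 to 0.29, exact permutation adjusted p = 0.0248) and no tumor of either group overlapped. Itgam was higher by 0.18 (0.05 to 0.28, exact permutation adjusted p = 0.0541), and by 0.24 with Ptprc, which encodes the leukocyte antigen CD45, as the only marker (exact permutation adjusted p = 0.0248). Without PBS mouse 26 it passed at 0.21 (exact permutation adjusted p = 0.0331). Itgal and Itgax differed by -0.08 (-0.23 to 0.06) and -0.11 (-0.37 to 0.13) on this measure and did not pass. The marker set itself was not even: Rac2 and Lcp1 rose by 0.69 and 0.42, and Laptm5 fell by 0.36 on the log2 scale, while Ptprc differed by 0.09 ± 0.12 (SE). With each mouse left out in turn, 1 to 3 of these markers rose and 0 to 2 fell.

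Some markers of neutrophils, which carry Mac-1, were also higher in CpG1826 tumors. Of 14 neutrophil markers 7 rose and 0 fell, among them S100a8 (4.37-fold, 3.11 to 6.13), Cxcr2 (3.11-fold, 2.36 to 4.10) and S100a9 (2.74-fold, 2.09 to 3.58). The summed linear intensity of the list was 2136 to 2462 in CpG1826 tumors and 1363 to 1785 in PBS tumors. Its brightest gene, Mmp9, weighs most in this sum, averaged 9.78 in CpG1826 tumors and 9.59 in PBS tumors, and did not pass. Ly6g, which defines mouse neutrophils, had a mean of 4.70 in both groups, and the values come with no detection call. Camp, Ngp, Ltf, Mpo and Elane differed by -0.07, 0.05, -0.03, 0.02 and -0.03 and did not pass. CpG1826 mouse 50 had the highest neutrophil level (6.46) and the lowest Itgb2 of its group. Likewise, PBS mouse 661 had the highest neutrophil level of its group (5.80) and the lowest Itgam (9.96) and Itgb2 (9.80). S100a8 and S100a9 were highest in CpG1826 mouse 50 (7.85 and 8.01) and, within the PBS group, in mouse 661 (5.81 and 6.26). Cxcr2 was highest in the same mice (7.41 and 5.82). The markers of the list differed in this. Csf3r, which rose 2.14-fold (1.76 to 2.60), was highest in CpG1826 mouse 183 (9.31). Within the PBS group Csf3r was lowest in mouse 661 (7.57), as were Itgam and Itgb2. The keratinocyte list was highest in CpG1826 mouse 189 (7.35), followed by mouse 50 (7.27), and within the PBS group in mouse 661 (5.94). The part of neutrophil number in the Itgam and Itgb2 values was not tested, nor was that of skin cells in the S100a8 and S100a9 values.

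**Figure D2:**
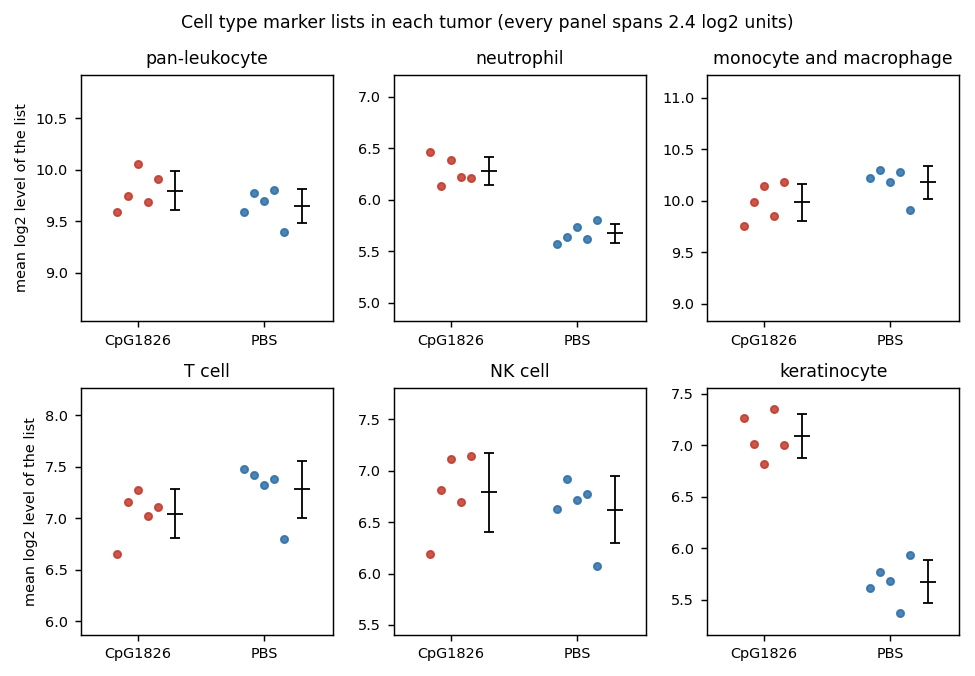
Mean log2 level of 6 lists of cell type markers in each tumor, CpG1826 (red) left of PBS (blue); each panel spans 2.4 log2 units, and the black mark and bar are the mean and SD of each group. The neutrophil and keratinocyte lists do not overlap between the groups, and PBS mouse 661 is the lowest PBS tumor for the pan-leukocyte, monocyte and macrophage, T cell and NK cell lists.

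Itga4 was the single gene of the 10 that fell. It encodes CD49d, the alpha4 chain that pairs with beta1 (VLA-4) to bind VCAM-1 and fibronectin and with beta7 to bind MAdCAM-1, and it is carried by monocytes, lymphocytes and other leukocytes. Its log2 levels were 7.97, 8.35, 8.45, 8.37 and 8.65 in CpG1826 mice 50, 58, 183, 189 and 595, against 9.13, 9.02, 8.99, 9.03 and 8.53 in PBS mice 26, 29, 482, 592 and 661. Of the CpG1826 tumors 4 lay below every PBS tumor. Mouse 595 exceeded PBS mouse 661, which lay apart from the other PBS tumors. Itga4 fell by 0.58 ± 0.13 (SE) on the log2 scale, a 95% confidence interval of 1.23- to 1.82-fold lower (limma adjusted p = 0.0200). The call was lost without PBS mouse 26 (-0.53, limma adjusted p = 0.0624), 29 (-0.56, limma adjusted p = 0.0543), 482 (-0.57, limma adjusted p = 0.0515) or 592 (-0.56, limma adjusted p = 0.0501). Without PBS mouse 661 the difference was -0.68 (limma adjusted p = 0.00432).

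The partners of the alpha4 chain did not pass. Itgb7 averaged 7.39 ± 0.13 in CpG1826 tumors and 7.46 ± 0.16 in PBS tumors (SD, n = 5 each), and Itgb1, which encodes the beta1 chain found on nearly all cells, differed by -0.01 ± 0.07 (SE). Itga4 minus Itgb7 was 0.49 to 1.19 in CpG1826 tumors and 1.33 to 1.65 in PBS tumors, a change of -0.51 (-0.84 to -0.23, exact permutation adjusted p = 0.0248). Itga4 minus Itgb1 changed by -0.57 (-0.83 to -0.26, exact permutation adjusted p = 0.0441), a call lost without CpG1826 mouse 50, 58, 183 or 189 (-0.59 to -0.50, exact permutation adjusted p = 0.0541 to 0.0661). Relative to the pan-leukocyte markers, Itga4 was lower by 0.73 in CpG1826 tumors (-0.95 to -0.50, exact permutation adjusted p = 0.0248), and the groups did not overlap on this measure. With each mouse left out in turn, the difference stayed between -0.77 and -0.67 and passed each time.

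Monocyte markers moved in the same direction as Itga4, in part. Of 13 monocyte and macrophage markers 3 fell and 1 rose: Cx3cr1 fell by 1.21, Ccr2 by 0.61 and Csf1r by 0.46 on the log2 scale, and Fcgr1 rose by 0.40, with 0 to 1 of the list rising and 2 to 3 falling when each mouse was left out in turn. Their summed linear intensity was 16246 to 21454 in CpG1826 tumors and 16361 to 21454 in PBS tumors. Adgre1, Cd68, C1qa, C1qb and Lyz2 differed by 0.03, -0.02, -0.14, 0.06 and -0.09. Of 10 T cell markers 0 passed, while 3 had an unadjusted p under 0.05, each lower (median -0.28), against 15.6% of all genes at that threshold in either direction and 7.43% lower, with a summed intensity of 1116 to 1956 in CpG1826 tumors and 1292 to 2253 in PBS tumors. Among 7 B cell markers 0 passed, also at an unadjusted p under 0.05, with a median of -0.08. The part of these cells in the Itga4 value was not tested.

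Itgae, the CD103 chain of tissue-resident T cells and a subset of dendritic cells, pairs with beta7 to bind E-cadherin. It averaged 6.00 ± 0.22 in CpG1826 tumors and 6.08 ± 0.15 in PBS tumors (SD, n = 5 each). The difference was -0.08 (-0.31 to 0.15) and the groups overlapped, with CpG1826 mouse 50 at 5.67 the lowest of all. Itgae minus Itgb7 changed by -0.01 (-0.37 to 0.30). Itgb2 minus Itgb7, a comparison of both leukocyte beta chains, changed by 0.42 (0.20 to 0.61, exact permutation adjusted p = 0.0248), and its values of 2.73 to 3.25 in CpG1826 tumors lay above the 2.55 to 2.71 of PBS tumors.

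Itga5 and Itgav, the alpha chains of matrix-binding integrins, rose by about the same amount. Itga5, whose product pairs with beta1 as the main fibronectin receptor, had log2 levels of 10.22, 10.33, 10.24, 9.91 and 10.18 in CpG1826 mice 50, 58, 183, 189 and 595, against 9.64, 9.72, 9.91, 9.82 and 9.94 in PBS mice 26, 29, 482, 592 and 661. In this gene 4 of 5 CpG1826 tumors exceeded every PBS tumor and mouse 189 lay within the PBS range. The rise was 0.37 ± 0.09 (SE), or 1.29-fold (1.13 to 1.48, limma adjusted p = 0.0274). Itga5 was the least stable of the calls: it was lost when CpG1826 mouse 50 (0.36, limma adjusted p = 0.0643), 58 (0.33, 0.0671), 183 (0.36, 0.0718) or 595 (0.37, 0.0579), or PBS mouse 26 (0.33, 0.0677), 29 (0.35, 0.0788) or 592 (0.38, 0.0564) was left out. Unlike most of the 10 genes, Itga5 was highest in PBS mouse 661 within its group.

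Itgav, which pairs with several beta chains to bind vitronectin and to activate latent TGF-beta, had levels of 10.98, 11.25, 11.28, 11.28 and 11.27 in the CpG1826 tumors, against 10.82, 10.93, 10.96, 10.90 and 10.83 in the PBS tumors. The groups did not overlap, and 4 of the CpG1826 tumors lay within 0.03 of each other while mouse 50 lay lower. Itgav rose by 0.33 ± 0.07 (SE), or 1.25-fold (1.12 to 1.40, limma adjusted p = 0.0187). That call was lost without CpG1826 mouse 183 (0.31, limma adjusted p = 0.0546) or PBS mouse 661 (0.31, limma adjusted p = 0.0504).

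Of the beta partners of alphav, Itgb3 rose and Itgb5 was lower in mean without passing. Itgb3, the beta3 chain of the vitronectin receptor and of the platelet fibrinogen receptor, rose by 0.41 ± 0.08 (SE, 1.33-fold, 1.17 to 1.51, limma adjusted p = 0.0122). Itgb5 was at 9.87 to 10.13 in CpG1826 tumors and 10.14 to 10.33 in PBS tumors, without overlap, a difference of -0.25 ± 0.07 (SE, limma adjusted p = 0.0694). Itgav minus Itgb5 was 1.12 to 1.31 in CpG1826 tumors and 0.59 to 0.68 in PBS tumors, a change of 0.58 (0.47 to 0.70, exact permutation adjusted p = 0.0248), the widest of the 15 chain pairs. Itgav minus Itgb1 changed by 0.34 (0.18 to 0.49, exact permutation adjusted p = 0.0248) and Itgav minus Itgb3 by -0.08 (-0.29 to 0.15). Itga5 minus Itgb1 changed by 0.39 (0.12 to 0.66, exact permutation adjusted p = 0.0541), a call gained without CpG1826 mouse 189 (0.45, exact permutation adjusted p = 0.0283). Itga5 minus Itgav changed by 0.05 (-0.23 to 0.29). Against the pan-leukocyte markers, Itga5 and Itgav differed by 0.22 (-0.13 to 0.58) and 0.18 (-0.04 to 0.37) and did not pass.

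**Figure D3:**
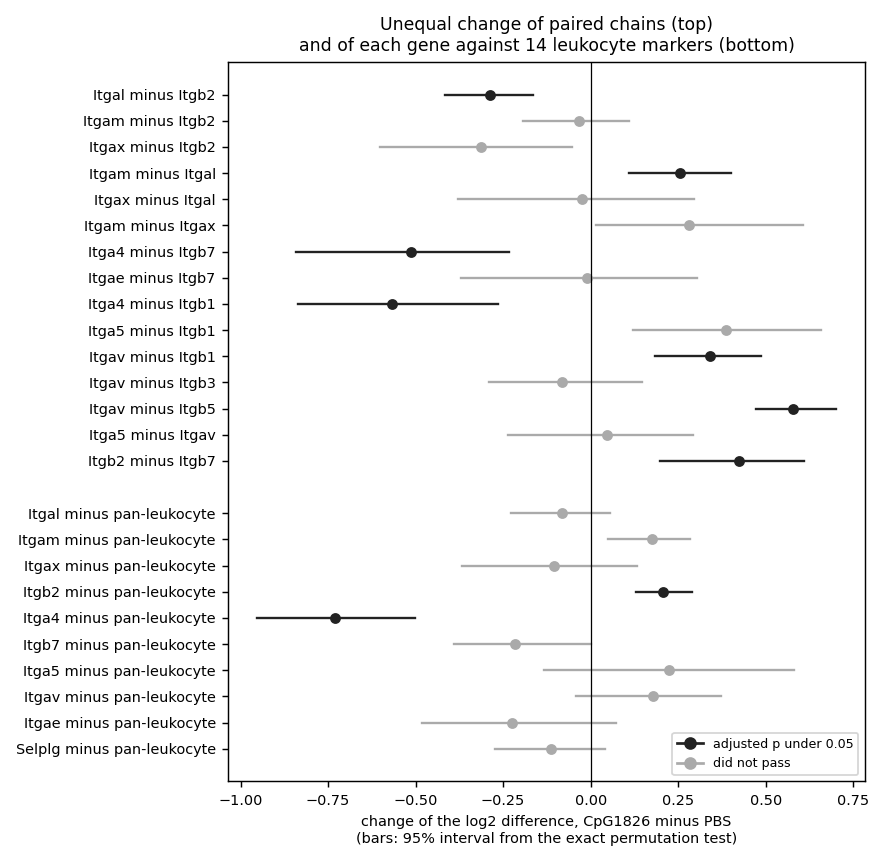
Change of the log2 difference between paired genes, CpG1826 minus PBS, for 15 pairs of integrin chains (top) and for each of the 10 genes against the mean of 14 pan-leukocyte markers (bottom); points are the change of the group means, bars the 95% interval from the exact permutation test, and black marks an adjusted p under 0.05. Of the 25 pairs 9 passed, with Itga4 against the leukocyte markers at -0.73 and Itgav against Itgb5 at 0.58 as the ends. Many pairs share a gene, and no rate over other gene pairs was computed to set beside this count.

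The promoters of the 3 genes that passed are shown in the same way, as the 250 bases before the RefSeq start (GRCm38.p6), with GAGGAA or TTCCTC in capitals.
Itga4 (chr2:79255176-79255425, plus strand): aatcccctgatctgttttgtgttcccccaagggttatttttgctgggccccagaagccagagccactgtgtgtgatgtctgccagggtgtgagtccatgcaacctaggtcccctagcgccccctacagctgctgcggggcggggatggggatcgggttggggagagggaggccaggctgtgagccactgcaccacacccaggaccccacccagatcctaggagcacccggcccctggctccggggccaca
Itga5 (chr15:103366792-103367041, minus strand): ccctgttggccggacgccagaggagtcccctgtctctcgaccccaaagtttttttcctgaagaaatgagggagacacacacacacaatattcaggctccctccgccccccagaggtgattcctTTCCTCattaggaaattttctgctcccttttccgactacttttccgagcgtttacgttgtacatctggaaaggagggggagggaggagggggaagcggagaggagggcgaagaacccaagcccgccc
Itgav (chr2:83724147-83724396, plus strand): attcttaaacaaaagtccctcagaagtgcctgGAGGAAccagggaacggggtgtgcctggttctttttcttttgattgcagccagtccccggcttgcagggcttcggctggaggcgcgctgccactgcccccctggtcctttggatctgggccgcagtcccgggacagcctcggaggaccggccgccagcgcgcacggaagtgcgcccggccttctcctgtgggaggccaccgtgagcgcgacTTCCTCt
The core is absent from these letters upstream of Itga4, occurs 127 to 122 bases before the start of Itga5, and occurs 218 to 213 and 7 to 2 bases before that of Itgav. The AP-1 motif TGANTCA, searched on both strands and found in 6.75% of all windows, is in none of the 4 promoters printed. The RUNX core TGTGGT, found in 14.04%, occurs in Itga4 alone of the 4, on the opposite strand at 60 to 55 bases before the start. Entries for 6 of the 10 genes were matched in the RefSeq promoter table.

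Selplg, the gene of PSGL-1, did not pass. It averaged 9.30 ± 0.23 in CpG1826 tumors and 9.27 ± 0.13 in PBS tumors (SD, n = 5 each), a difference of 0.03 (95% confidence interval -0.19 to 0.26). The CpG1826 values spanned 9.11 to 9.68 and held the PBS values of 9.06 to 9.37 but for mouse 661. Relative to the pan-leukocyte markers Selplg differed by -0.11 (-0.27 to 0.04). Of 12 enzymes that put sugars and sulfate on PSGL-1, 0 passed, and 5 had an unadjusted p under 0.05, which 15.6% of all genes reached: Fut4 (-0.28) and Fut7 (-0.22), the fucosyltransferases of leukocyte selectin ligands, and St3gal4 (-0.20) were lower, and C1galt1 (0.21) and St3gal1 (0.20) were higher. Fut4 and Fut7 lay low, at means of 5.41 and 5.52 in CpG1826 tumors and 5.68 and 5.74 in PBS tumors. The median level of all genes was 6.87, and no detection call was available. B4galt1 differed by 0.08 ± 0.07 (SE). Among 9 selectins and other selectin ligands 0 passed, with Cd34 at 0.03 and Glg1, which encodes the E-selectin ligand ESL-1, at 0.04. Cd44 alone had an unadjusted p under 0.05 (0.15 ± 0.06). Sele, the endothelial selectin, differed by -0.06 ± 0.10 (SE). The medians of these lists, -0.03 and -0.02, lay close to the -0.02 of all genes.

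Other integrin chains are given for scale. Of 17, 3 rose and 0 fell, with a median log2 difference of -0.01. Itga2, the collagen-binding alpha2 chain of platelets and epithelia, rose by 0.97 ± 0.10 (SE, 1.95-fold, 1.69 to 2.25, limma adjusted p = 5.13e-05). This is the largest difference among all 26 integrin chains measured. Itga9, the alpha9 chain carried by neutrophils and epithelia that also binds VCAM-1, rose by 0.76 ± 0.15 (SE, 1.69-fold, 1.35 to 2.11, limma adjusted p = 0.00882). The chains of the epidermal basement membrane receptors, Itga6, Itgb4 and Itga3, differed by -0.14 ± 0.07, 0.01 ± 0.10 and 0.08 ± 0.08 (SE) and did not pass. In the same tumors Krt5 and Krt14, keratins of the basal epidermis that bear these receptors, rose 7.75-fold (4.97 to 12.1) and 6.05-fold (4.09 to 8.94). The part of skin cells in the Itga2 value was not tested.

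**Figure D4:**
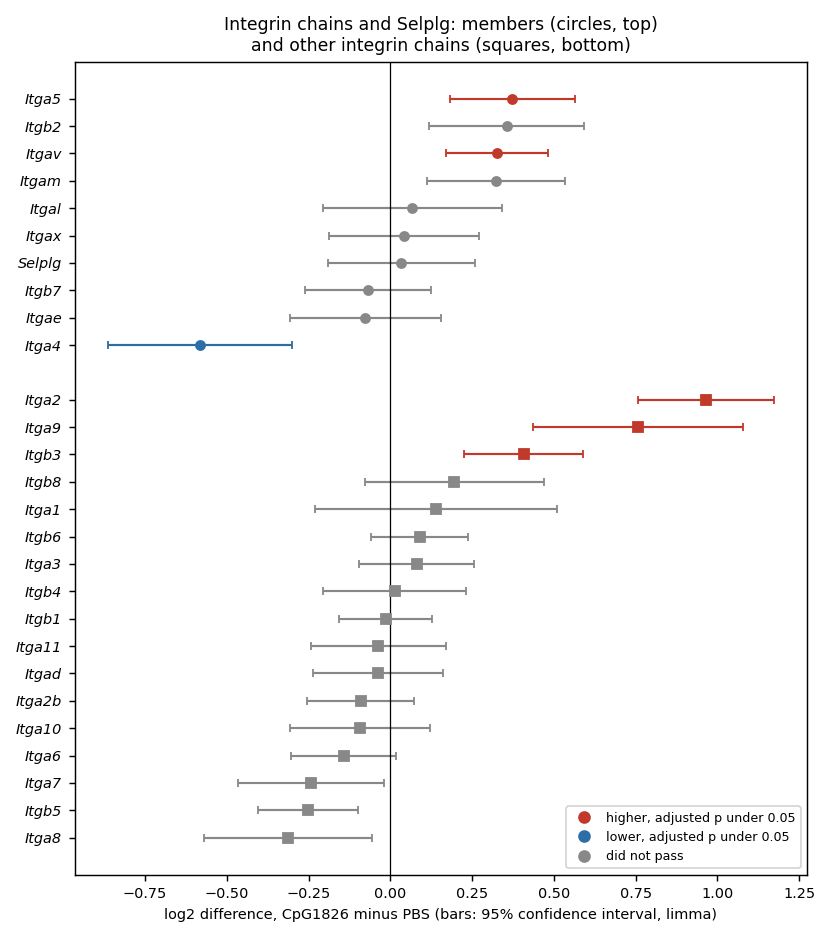
Log2 difference, CpG1826 minus PBS, with its 95% confidence interval (limma) for the 9 leukocyte integrin chains and Selplg (circles, top) and for 17 other integrin chains (squares, bottom), ordered by size within each set. Red marks genes that rose and blue a gene that fell at an adjusted p under 0.05; Itga2 at 0.97 and Itga4 at -0.58 are the ends.

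Ligands of these integrins rose in 3 of 20 cases and fell in 0, with a median of 0.01. Vcam1, the ligand of alpha4beta1, rose by 0.55 ± 0.09 (SE, 1.46-fold, 1.28 to 1.68, limma adjusted p = 0.00288), in the same tumors in which Itga4 fell. Icam1, the ligand of LFA-1 and Mac-1, rose by 0.37 ± 0.08 (SE, 1.29-fold, 1.15 to 1.45, limma adjusted p = 0.0131). All 5 CpG1826 tumors lay above all PBS tumors for both. Cdh1, which encodes E-cadherin, the ligand of CD103 and an epithelial protein, rose by 0.63 ± 0.13 (SE, limma adjusted p = 0.0102), beside the rise of the keratinocyte markers given above. Madcam1 and Fn1, the ligands of alpha4beta7 and alpha5beta1, differed by -0.12 ± 0.10 and 0.01 ± 0.07 (SE). Icam2, a further LFA-1 ligand, differed by -0.14 ± 0.09 (SE). Of 10 endothelial markers 1 fell, Tek by 0.34, and 0 rose, with a summed intensity of 1756 to 2398 in CpG1826 tumors and 1813 to 2037 in PBS tumors.

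Among 22 genes that activate beta2 integrins or carry their signals, 4 rose and 0 fell, with a median of 0.03. The number that rose was 3 without CpG1826 mouse 58, 183 or 595 or PBS mouse 26, 29, 482 or 661, and 3 at an adjusted p under 0.01. Syk, the tyrosine kinase downstream of beta2 integrins and Fc receptors, rose by 0.86 ± 0.13 (SE, 1.82-fold, 1.49 to 2.21, limma adjusted p = 0.00145). The Src family kinase gene Fgr rose by 0.75 ± 0.14 (SE, limma adjusted p = 0.00744), the guanine exchange factor gene Vav1 by 0.62 ± 0.15 (SE, limma adjusted p = 0.0332), and Rap1b, the small GTPase that switches integrins on, by 0.29 ± 0.06 (SE, limma adjusted p = 0.00972). Genes of proteins that bind the beta tails did not pass: Fermt3, the kindlin of blood cells, and Tln1, talin, differed by 0.03 ± 0.09 and 0.10 ± 0.07 (SE). The adaptors Tyrobp and Fcer1g, which link beta2 integrins to Syk, differed by -0.10 ± 0.10 and 0.33 ± 0.12 (SE) and did not pass. In the same tumors 7 of 14 neutrophil markers rose, with the summed intensities given above, and their part in the values of these myeloid kinases was not tested.

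**Figure D5:**
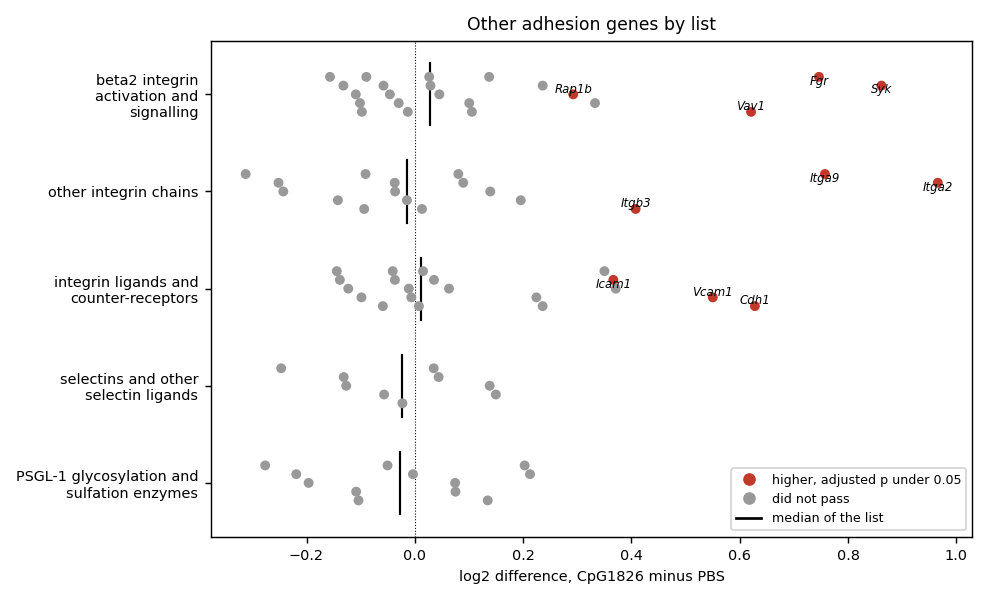
Log2 difference, CpG1826 minus PBS, of every measured gene in 5 lists of adhesion genes; red points rose at an adjusted p under 0.05, grey points did not pass, and the black line is the median of each list. The genes that passed, 4, 3, 3, 0 and 0 from top to bottom, all lie above 0.

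Within the groups, genes whose deviations from the group mean followed those of each leukocyte chain over the 10 arrays were, by Pearson's r as a description, Il12rb2 (0.98), Tbc1d23 (0.98) and Adgre1 (0.98) for Itgam, Ptpn22 (0.98), Apoe (0.98) and Gmfg (0.97) for Itgal, Spata13 (0.98), AB124611 (0.98) and Cyfip2 (0.98) for Itgb2, Kcna3 (0.98), Dennd1c (0.98) and Tnfrsf1b (0.96) for Selplg, and Mrps9 (0.95), Epas1 (0.91) and Tspan18 (0.90) for Itgax. An r above 0.9 was reached by 97 genes for Itgal, 84 for Itgb2, 82 for Itgam, 49 for Selplg and 5 for Itgax. These values rest on 10 arrays, of which mice 661 and 183 lie at the ends for most leukocyte genes.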

How the data were processed

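Total RNA of 10 tumors was labelled with biotin by a whole-transcript kit, per the labels' protocols. The authors deposited 1 log2 value per probe and array; the scale and the normalization between arrays were inferred from the values (2.03 to 14.70). R 2.7.1 and limma are named with no role, per the submitters' processing notes, with the other steps not stated, so compression of low values cannot be judged. Normalization between arrays would remove a change common to most genes. Of 35512 probes, 21789 name exactly 1 gene, 1621 several and 12102 none, and only the first were used (3 probes naming Itgam together with a ribosomal gene were left out). The brightest probe stood for each of 19938 genes. Symbols came from the platform annotation, and 21698 probes matched a gene number of the RefSeq table for GRCm38.p6.

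The test was limma 3.58.1 (lmFit, eBayes; R 4.3.3; two-sided, Benjamini-Hochberg over 19938 genes, threshold 0.05), and the fit was tested on simulated data. Changes of the difference between 2 genes were tested by exact permutation over the 252 splits of the arrays, with intervals from inverting that test. The number of arrays limits the precision. Nothing in the labels says that the mice were handled separately, beyond a number for each mouse. No batch, slide or scan date was used here. The members, the adhesion and cell type lists, the 25 pairs and the rule for named genes were chosen with earlier results of these data known. That rule named all members, up to 4 genes that passed in each adhesion list (or the 2 brightest) and up to 3 in each cell type list, and the 3 genes most like each of 5 members. Others were chosen after their values were seen. Further lists were dendritic cells (2 of 11 rose, Ccr7 and Cd83), NK cells (1 of 9 rose, Gzmb), mast cells (1 of 9 rose, Hdc), and eosinophils, platelets, fibroblasts, skeletal muscle and ribosomal proteins (0 of 5, 6, 10, 6 and 11 passed in limma, with 0, 0, 2, 1 and 0 at an unadjusted p under 0.05). Alternatives tried: quantile normalization again, centring on medians, filters on level, another prior, array weights, other probe choices, a threshold of 0.01, Ptprc as leukocyte measure and leaving out each mouse.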

Additional observations from a re-analysis of the deposited data

Results flagged for a closer look

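Among the 20 sets of 5 values (10 genes in 2 groups), 3 had a tumor whose gap to its nearest neighbour was over 0.71 of the whole range, where chance flags about 1 in 20 sets. The genes were measured in the same tumors, so the sets are not independent and the number of flags cannot be weighed against that rate. In PBS mouse 661, Itgal was at 8.26 and Itga4 at 8.53, both far below the other PBS tumors. In CpG1826 mouse 50, Itgav was at 10.98, below the other CpG1826 tumors.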

How the results depend on the processing

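No paired analysis was possible because no mouse number occurs in both groups. Leaving out 1 mouse at a time gave log2 differences of -0.68 to -0.48 for Itga4, 0.33 to 0.44 for Itga5, 0.31 to 0.38 for Itgav, 0.25 to 0.36 for Itgam, 0.27 to 0.41 for Itgb2, -0.034 to 0.13 for Itgal, -0.055 to 0.094 for Itgax, -0.13 to -0.02 for Itgb7, -0.14 to 0.0077 for Itgae and -0.062 to 0.080 for Selplg. The number of the 10 genes that rose was 0 to 2 and that fell 0 to 1 over these fits. It was 0 rising without CpG1826 mouse 183, and 0 falling without PBS mouse 26, 29, 482 or 592. Calls were lost with sizes much as before. Each such fit has fewer samples, and the cause of the lost calls was not tested. At an adjusted p under 0.01, 0 of the 10 rose and 0 fell, and 1 integrin ligand (Vcam1) rose. Itgam passed at 0.32 when only genes above the median level were tested, at 0.32 with a trended, robust prior and at 0.35 with array weights. It did not pass in the other 15 fits, among them each fit with 1 mouse left out. Of the other chains, 1 fell (Itgb5) after a further quantile normalization, with either filter on level, with a trended, robust prior and with array weights. Among PSGL-1 enzymes, 1 rose (St3gal1) with the genes below the median left out and with the trended prior, and 1 fell (St3gal4) after the further quantile normalization. The cause of these changes was not tested, and a filter alters both the number of genes adjusted over and the fitted prior. Of the 25 pairs, many of which share a gene, 9 passed, and 8 to 10 with 1 mouse left out. Itga4 minus Itgb1 did not pass without CpG1826 mouse 50, 58, 183 or 189 (-0.59 to -0.50), and Itgam against the pan-leukocyte markers passed without PBS mouse 26 (0.21), as did Itgb7 without CpG1826 mouse 50 (-0.29). Small pair differences that did not pass changed sign: with 1 mouse left out Itgam minus Itgb2 was -0.060 to 0.0049, Itgax minus Itgal -0.095 to 0.099, Itgae minus Itgb7 -0.081 to 0.096 and Itga5 minus Itgav -0.021 to 0.13, and Itgae minus Itgb7 was 0.0097 after the further quantile normalization. Signal over background was not used here, so the limits it sets are not known.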
